A study of Homo sapiens with 4 samples.

Results

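The genes for 10 human enzymes of purine nucleotide synthesis, PRPS1, PRPS2, PPAT, GART, PFAS, PAICS, ADSL, ATIC, IMPDH2 and GMPS, were followed in MV4-11 cells after IRF1 knockdown. They were taken by gene symbol, which found all 10 among the 23622 genes of the deposited table. All 10 also had enough reads for the test, which covered 14120 genes. MV4-11 is a human acute myeloid leukemia (AML) cell line with a rearranged KMT2A gene, and the labels give its genotype as WT in every library. Total RNA was sequenced from 2 libraries labelled NC, with treatment given as none, and from 2 libraries labelled as IRF1 knockdown. The table's headers and the study call these groups sh-NC and sh-IRF1. Per the study's methods, knockdown used a short hairpin RNA, which directs the breakdown of matching transcripts, carried by a pLKO.1 lentivirus, and infected cells were selected with puromycin. The hairpin used in each sh-IRF1 library is not given in the sources used here, and neither is whether the libraries came from separate cultures, so p-values measure the spread between these libraries only.

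Purine nucleotides are built stepwise on a ribose phosphate. Phosphoribosyl pyrophosphate (PRPP) synthetase makes the activated sugar, PPAT commits it to the pathway, and GART, PFAS, PAICS, ADSL and ATIC then assemble the ring as inosine monophosphate (IMP). IMP is turned into GMP by IMP dehydrogenase and GMPS, or into AMP by adenylosuccinate synthetase and ADSL. Dividing cells, leukemia cells among them, draw on this route for DNA and RNA synthesis, and inhibitors of purine synthesis are used as antileukemic and immunosuppressive drugs. The transcription factors MYC and ATF4 are known to activate several of its genes.

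The deposited values are reads per gene divided by 1 size factor per library, called normalized counts here, and libraries held between 17635908 and 18695337 reads. IRF1, the targeted gene, had 785 and 738 normalized counts in sh-NC and 429.7 and 432 in sh-IRF1 (log2 fold change -0.82, standard error 0.0904, limma adjusted p = 1.69e-10). Other genes overlap 22.9% of the exonic bases of IRF1. All 8 markers listed for this AML line were measured in every library, from 158 normalized counts for MPO to 17412 for FLT3. Among them MPO, a granule enzyme, lay at 477 and 443 in sh-NC and 185 and 158 in sh-IRF1, and LYZ, which encodes lysozyme, at 1824 and 1785 in sh-NC and 3276 and 3218 in sh-IRF1. PTPRC, the leukocyte surface phosphatase CD45, and FLT3, a receptor kinase of early myeloid cells, stood at 71.6% and 72.9% of their sh-NC means in sh-IRF1, within the range of the lowered purine genes. The other markers, CD33, SPI1, HOXA9 and MEIS1, stood between 92.6% and 113%. The part of such shifts in the results below was not tested. In bulk RNA, a change in the make-up of the cells and a change of RNA per cell cannot be told apart. Fold changes are differences of log2(normalized count + 1), sh-IRF1 minus sh-NC, tested with limma over all 14120 genes. A gene was called at a Benjamini-Hochberg adjusted p under 0.05. The smallest two-sided p that an exact permutation test allows for 2 against 2 libraries is 0.33, and calls therefore depend on the variance that limma shares across genes.

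Of the 10 purine synthesis genes, 6 were called lower in sh-IRF1, namely PRPS2, PPAT, GART, PAICS, ATIC and GMPS. Over all genes tested, 21.9% were called lower. PFAS was called higher, as were 20.3% of all genes. Together 7 of the 10 were called in either direction, against 42.2% of all genes, while PRPS1, ADSL and IMPDH2 did not pass. Fold changes of the 10 genes had a median of -0.27 on the log2 scale, and those of all genes one of -0.0019. The changes were moderate, between -0.54 and 0.13. PPAT was the single member called lower beyond a log2 fold change of 0.5, a size reached with an adjusted p under 0.05 by 7.56% of all genes in that direction, and with reads scaled by library totals PPAT lay just inside it, at -0.498. No member was called higher beyond 0.5, neither in limma (0 also at an unadjusted p under 0.05) nor in edgeR or DESeq2 (0 each), against 8.27% of all genes. Both sh-IRF1 libraries lay below both sh-NC libraries for the same 6 genes, which was the case for 35% of all genes. The reads of the 10 genes summed to 30489.6 ± 329 normalized counts (SD, n = 2) in sh-NC and to 25875 ± 301 (SD, n = 2) in sh-IRF1, that is to 84.9% of the control sum.

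**Figure D1:**
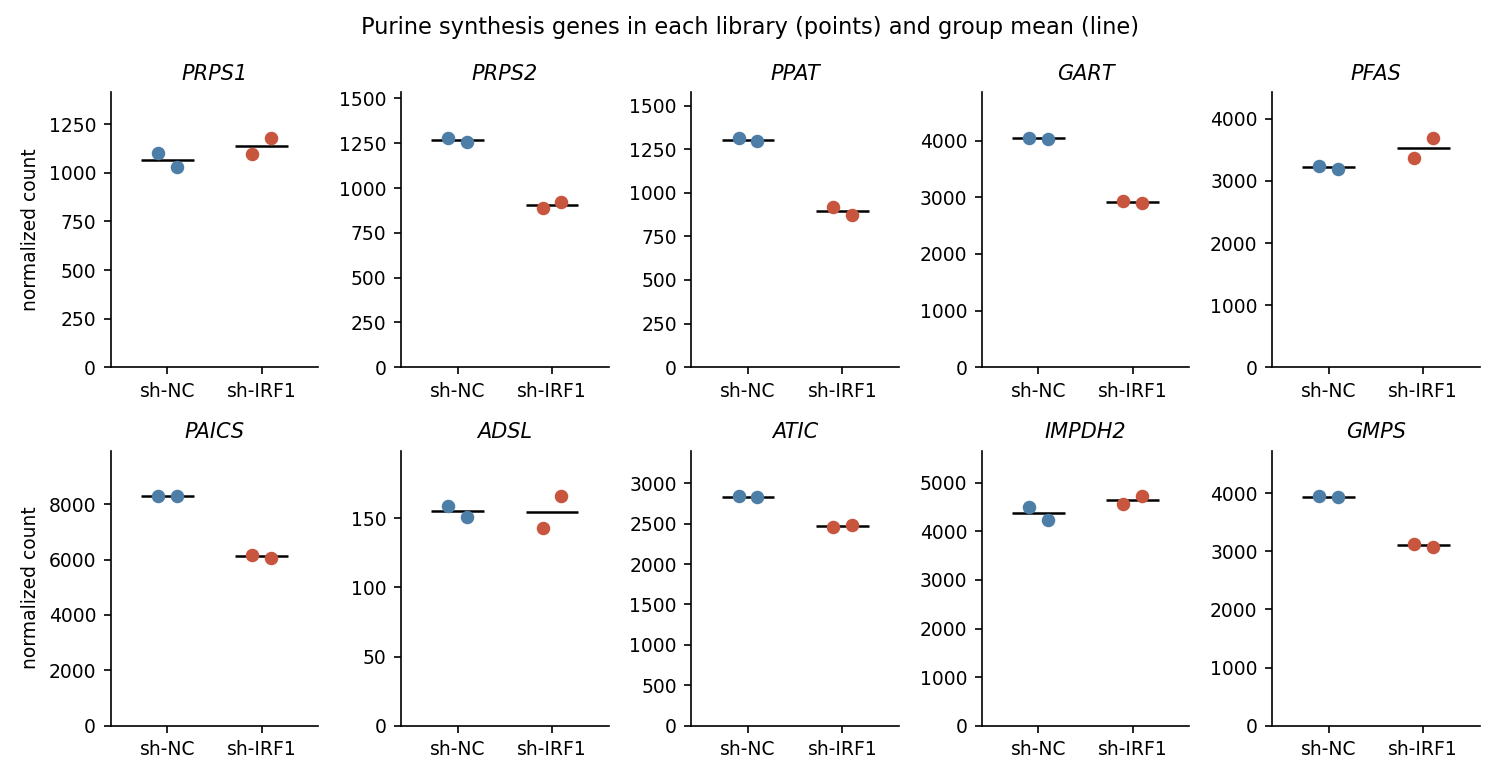
Normalized counts (y axis, starting at 0, a different range for each gene) of the 10 purine synthesis genes in the 2 sh-NC and 2 sh-IRF1 libraries, with points for libraries and lines for group means. The sh-IRF1 points of PRPS2, PPAT, GART, PAICS, ATIC and GMPS lie below both sh-NC points, while those of PRPS1 and ADSL overlap with them.

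PRPS1 and PRPS2 encode isoforms of PRPP synthetase, the enzyme that supplies the activated ribose, and they behaved differently. PRPS2 (ENSG00000101911, chrX:12791355-12824222 of GRCh38, plus strand) had 1280.2 and 1256 normalized counts in sh-NC and 887 and 924 in sh-IRF1. Its groups were well separated, and 71.4% of the control level remained (log2 fold change -0.49, standard error 0.067, limma adjusted p = 4.55e-08). PRPS1 (ENSG00000147224, chrX:107628428-107651993, plus strand) had 1102 and 1030.2 normalized counts in sh-NC and 1099 and 1181 in sh-IRF1. These groups overlapped, since the lower sh-IRF1 library lay just under the higher sh-NC library. The log2 fold change of PRPS1 was 0.097, with a 95% interval from -0.039 to 0.23 and an adjusted p of 0.26 from limma.

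The ratio of the PRPP synthetase isoforms does not depend on how libraries were scaled. Per kilobase of the MANE Select transcript, the reference transcript shared by RefSeq and Ensembl, the log2 ratio of PRPS2 to PRPS1 was -0.038 and 0.032 in sh-NC and -0.56 and -0.61 in sh-IRF1. By this length the isoforms were level in sh-NC, with a ratio of 0.998. PRPS2 stood at 0.666 of PRPS1 in sh-IRF1, with no overlap between the groups. Per kilobase of all annotated exonic bases, the sh-NC means were 460 for PRPS2 and 314 for PRPS1. The level of the ratio thus depends on the length used, while its shift between the groups does not. Among all single genes, the groups lay apart for 35% in the lower direction and for 34.2% in the higher. No such share was computed for this ratio or the later ones. Transcripts of PRPS1 and PRPS2 in GENCODE 44 shared 0 runs of 50 bases, and the reads of the pseudogene PRPS1P2 came to 0.968% of those of PRPS1. PRPSAP1, which encodes a protein associated with the synthetase, fell as well, from 1073 and 1135 normalized counts in sh-NC to 754 and 789 in sh-IRF1 (log2 fold change -0.52, standard error 0.0723, limma adjusted p = 6.22e-08).

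PPAT, the amidotransferase of the committed step, showed the largest fitted decrease among the 10 genes. It had 1315 and 1296 normalized counts in sh-NC and 921 and 872 in sh-IRF1, which is 68.7% of the control level (log2 fold change -0.54, standard error 0.0669, limma adjusted p = 3.26e-09). PAICS, a bifunctional enzyme that adds carbon dioxide and then aspartate to the growing ring, had 8284 and 8287 normalized counts in sh-NC and 6170.2 and 6071 in sh-IRF1. This left 73.9% of the control level (log2 fold change -0.44, standard error 0.0328, limma adjusted p = 1.47e-15). For both genes the distance between the groups was far larger than the distance between the libraries of a group. The log2 ratio of PAICS to PPAT per transcript length was 1.86 and 1.89 in sh-NC and 1.95 and 2.01 in sh-IRF1. The groups did not overlap, but their means differed by only 0.11. The limma 95% intervals of the fold changes overlapped, from -0.68 to -0.41 for PPAT and from -0.50 to -0.37 for PAICS. Whether the genes fell by different amounts was not tested.

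PPAT (ENSG00000128059, chr4:56393362-56435615, minus strand) and PAICS (ENSG00000128050, chr4:56435741-56464578, plus strand) are neighbours transcribed away from each other. Their RefSeq start sites on GRCh38.p14 lie 137 bases apart, and the windows from 250 bases before to 50 after each start share 236 bases. Since both genes fell, the window of PPAT, which holds the shared bases, is shown (chr4:56435566-56435865, minus strand), with the letters of the E-box CACGTG, the element bound by MYC and MAX, in capitals.
PPAT: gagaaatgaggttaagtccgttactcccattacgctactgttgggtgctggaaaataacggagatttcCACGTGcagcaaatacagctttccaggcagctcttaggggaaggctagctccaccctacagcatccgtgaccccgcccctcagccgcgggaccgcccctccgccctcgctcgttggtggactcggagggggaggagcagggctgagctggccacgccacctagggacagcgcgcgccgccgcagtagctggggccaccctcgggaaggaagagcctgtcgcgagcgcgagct
The capitals begin at position -182 from the PPAT start and, read on the other strand, at position 41 from the PAICS start, so both windows hold the same site at chr4:56435792-56435797. PAICS has 3 windows in the RefSeq table, and the other two held no E-box.

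The E-box reads the same on both strands, and it was found in 2548 of 35116 promoter windows of 300 bases (7.26%). Among the 10 members, 8 had windows in the table, 12 windows in all, and 3 of these windows held the motif, those of PPAT, PAICS and ATIC. The core of the IRF element, written as GAAA, any 2 bases and GAAA and searched on both strands, was found in 3.57% of all windows and in 0 of the 12. With so low a share, 0 is the likely outcome for any 12 windows. Some of the 12 also overlap, among them windows of GART and those of PPAT and PAICS. The 0 therefore says little about IRF elements at these genes. The window of ATIC (chr2:215311809-215312108, plus strand) held the E-box at positions -46 and 30 from the start, and it is shown because ATIC fell least among the lowered genes.
ATIC: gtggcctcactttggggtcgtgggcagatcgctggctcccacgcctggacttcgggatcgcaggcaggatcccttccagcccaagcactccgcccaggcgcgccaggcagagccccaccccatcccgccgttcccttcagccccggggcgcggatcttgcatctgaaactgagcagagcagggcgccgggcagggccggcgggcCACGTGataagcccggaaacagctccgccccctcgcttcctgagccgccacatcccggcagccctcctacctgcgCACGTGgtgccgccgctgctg
The genes with the motif had log2 fold changes of -0.54, -0.44 and -0.20. Among those whose windows held none, GART, PRPS2 and GMPS lay between -0.49 and -0.35, and PRPS1 and PFAS at 0.097 and 0.13. The folds of the 2 sets therefore overlapped, and the letters alone are no measure of binding.

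GART (ENSG00000159131, chr21:33503931-33543491, minus strand) encodes a trifunctional enzyme of the early ring assembly, which includes a formyl transfer from folate. Its normalized counts were 4052 and 4039.6 in sh-NC and 2930.4 and 2901 in sh-IRF1, and 72.1% of the control level remained (log2 fold change -0.47, standard error 0.0413, limma adjusted p = 1.88e-13). ATIC (ENSG00000138363, chr2:215311956-215349773, plus strand), the bifunctional enzyme that makes the second formyl transfer and closes the ring to IMP, fell less. It had 2837 and 2829.7 normalized counts in sh-NC and 2457 and 2485 in sh-IRF1, or 87.2% of the control level (log2 fold change -0.20, standard error 0.0454, limma adjusted p = 0.000353). The libraries of each group were close together for both genes, and the groups did not overlap.

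PFAS (ENSG00000178921, chr17:8247618-8270491, plus strand), the glutamine-using enzyme between the first steps of GART and PAICS, went the other way. It had 3248 and 3187 normalized counts in sh-NC and 3371 and 3694 in sh-IRF1. The sh-IRF1 libraries differed from each other more than the nearer one differed from sh-NC. The log2 fold change was 0.13 (standard error 0.0439, limma adjusted p = 0.0118), and it became 0.067 with an adjusted p of 0.369 without sh-IRF1 replicate 2, so the call rests on that library. ADSL (ENSG00000239900, chr22:40346461-40390463, plus strand), the lyase that acts both in ring assembly and in the branch to AMP, had 159 and 151 normalized counts in sh-NC and 143 and 166 in sh-IRF1. Its groups overlapped, and its log2 fold change of -0.0075 had a 95% interval from -0.35 to 0.34, which is too wide to separate no change from changes of the size seen for GMPS and ATIC.

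**Figure D2:**
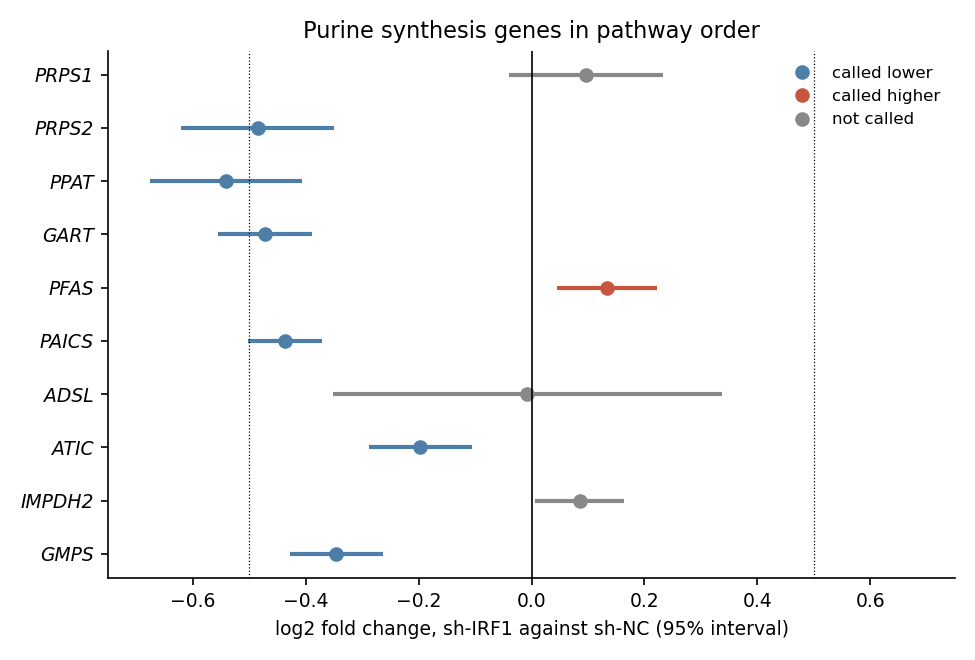
Fitted log2 fold change, sh-IRF1 minus sh-NC (x axis), with its 95% interval from limma for each of the 10 genes, in the order of the pathway, where blue marks genes called lower, red called higher and grey not called, and dotted lines stand at -0.5 and 0.5. PPAT lies at -0.54, PFAS at 0.13, and the interval of ADSL from -0.35 to 0.34 is the widest.

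At the branch to guanine nucleotides, the genes for consecutive enzymes differed. GMPS (ENSG00000163655, chr3:155870650-155944020, plus strand), which aminates xanthosine monophosphate to GMP, had 3945 and 3936 normalized counts in sh-NC and 3128 and 3073 in sh-IRF1. The groups were apart, with 78.7% of the control level left (log2 fold change -0.35, standard error 0.0411, limma adjusted p = 1.25e-09). IMPDH2 (ENSG00000178035, chr3:49024325-49029447, minus strand), the IMP dehydrogenase isoform known to be raised in dividing cells, had 4500.2 and 4244 normalized counts in sh-NC and 4555 and 4721 in sh-IRF1. Both sh-IRF1 libraries were above both sh-NC libraries, but the sh-NC libraries differed from each other by more than the nearest pair across the groups. Its log2 fold change of 0.086 (95% interval 0.0068 to 0.16) did not pass (limma adjusted p = 0.0742), whereas without sh-NC replicate 1 it was 0.13 with an adjusted p of 0.0146. In GENCODE 44, 32.8% of the exonic bases of IMPDH2 are shared with other genes, mostly with ENSG00000290315 on its own strand. That gene has no values in the deposited data, and genes that do share 2.58% of the exonic bases of IMPDH2.

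Within each library, the log2 ratio of GMPS to IMPDH2 per transcript length was -2.58 and -2.49 in sh-NC and -2.93 and -3.01 in sh-IRF1, a difference of -0.43 with no overlap. IMPDH1, the other IMP dehydrogenase gene, fell from 4169 and 4185 normalized counts in sh-NC to 3643 and 3608 in sh-IRF1 (log2 fold change -0.20, standard error 0.0396, limma adjusted p = 3.15e-05). The log2 ratio of IMPDH2 to IMPDH1 was therefore higher in sh-IRF1, at 0.98 and 1.05, than in sh-NC, at 0.77 and 0.68. Which gene lies higher depends on the length used, while the shift between the groups does not. Per kilobase of all annotated exonic bases, the sh-NC means were 853 for IMPDH2 and 1230 for IMPDH1. Transcripts of the IMP dehydrogenase genes shared 0 runs of 50 bases. On the branch to AMP, ADSS2, the widely expressed adenylosuccinate synthetase, had 1415 and 1541 normalized counts in sh-NC and 1178 and 1193 in sh-IRF1 (log2 fold change -0.32, standard error 0.062, limma adjusted p = 3.78e-05). ADSS1, its muscle isoform, was low at 168 and 179.7 in sh-NC and uneven at 71.6 and 126 in sh-IRF1. The log2 fold change of ADSS1 was -0.87 (limma adjusted p = 0.000471), and without sh-IRF1 replicate 1 it was -0.47 with an adjusted p of 0.0953.

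**Figure D3:**
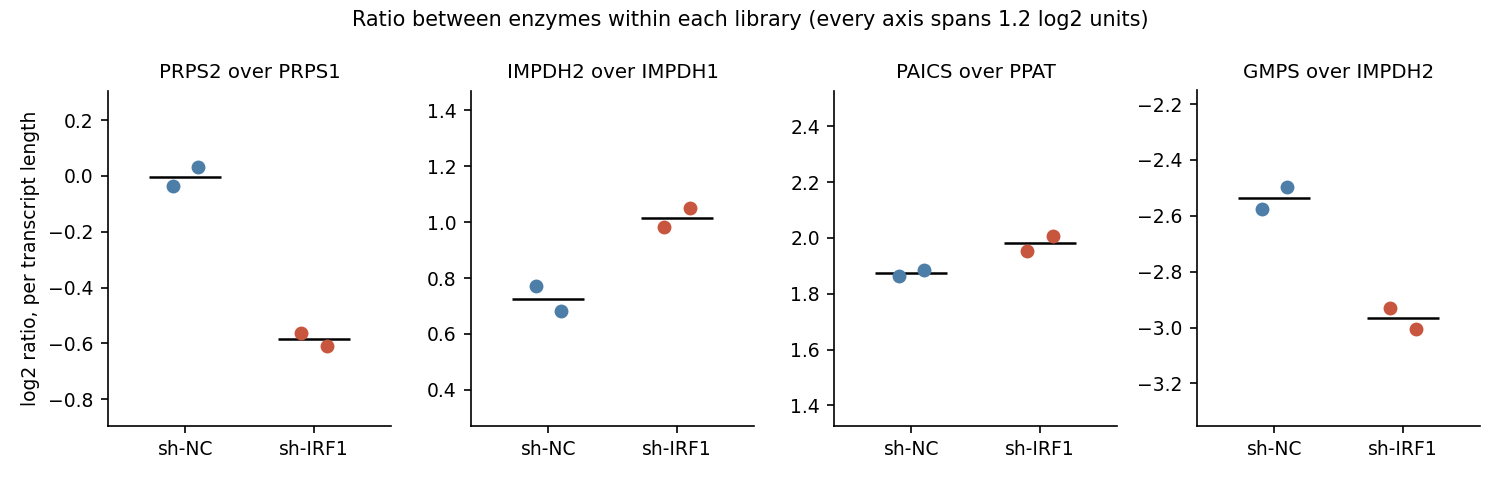
Log2 ratio between enzymes per kilobase of MANE Select transcript within each library (y axis, each spanning the same range), with points for the 2 sh-NC and 2 sh-IRF1 libraries and lines for group means. Of the 4 ratios drawn, PRPS2 over PRPS1 differed most, from -0.0029 on average in sh-NC to -0.59 in sh-IRF1, and PAICS over PPAT least, from 1.87 to 1.98.

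The genes also differed widely in level. In normalized counts per kilobase of MANE Select transcript, the sh-NC means ran from 2648 for IMPDH2 through 1437 for ATIC, 1301 for PAICS, 1219 for GART, 599 for PFAS, 515 for PRPS1, 514 for PRPS2, 457 for GMPS and 355 for PPAT to 35.6 for ADSL. Neighbours in this order did not overlap in the sh-NC libraries except PRPS1 and PRPS2. The order of the 10 genes was the same in sh-IRF1, where IMPDH2 stood at 2809 and ADSL at 35.5. PPAT, the gene of the committed step, was thus the second lowest by this scale. ADSL lay 9.97-fold below PPAT. In GENCODE 44, 11.1% of the 12109 exonic bases of ADSL are shared with ENSG00000284431, a protein-coding gene on the same strand that was also counted. The level of ADSL above uses the MANE Select transcript of 4359 bases, for which the shared part was not computed. How reads over such bases were counted is not given in the sources used here. Whether the low level of ADSL comes from this overlap was not tested. The order depends on the length used, since per kilobase of all annotated exonic bases PAICS came first at 1102, ahead of IMPDH2 at 853 and ATIC at 748.

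Around these genes, the rest of purine metabolism was read from lists written from general knowledge. In the 6 lists on branch enzymes, salvage, interconversion, nucleotide kinases, folate and ribose supply, 53 of 59 listed genes could be tested, of which 18 were called lower (34%, against 21.9% of all genes) and 13 higher (24.5%, against 20.3%), with a median log2 fold change of -0.055. The shares per list below stand against the same 21.9% and 20.3%. In the branch and regulator list, 4 of 5 tested genes were lower, those given above, and the other, PRPSAP2, had a log2 fold change of -0.03. In limma without trend and robust shrinkage, only PRPSAP1 of these kept its call (adjusted p = 0.0325). The adjusted p was then 0.0813 for IMPDH1, 0.0669 for ADSS2 and 0.149 for ADSS1. Of 8 salvage genes, which recycle free bases and nucleosides, 4 were lower (50%) and 1 higher (12.5%). APRT, which recovers adenine, had 3119 and 3166 normalized counts in sh-NC and 2430.1 and 2459 in sh-IRF1 (log2 fold change -0.36, limma adjusted p = 3.10e-09). PNP, the phosphorylase that splits purine nucleosides, was the raised one, at 1374 and 1342 in sh-NC and 1587 and 1575 in sh-IRF1 (log2 fold change 0.22, limma adjusted p = 0.0018). In limma without trend and robust shrinkage, APRT kept its call (adjusted p = 0.0376) and PNP lost it (adjusted p = 0.0762).

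Among 9 tested genes of interconversion and breakdown, 2 were higher (22.2%), and 7 did not pass. None was called lower by limma, edgeR or DESeq2 (0 each), with 1 at an unadjusted p under 0.05 in limma. ADA2, a secreted adenosine deaminase of myeloid cells, rose from 956 and 964 normalized counts in sh-NC to 1606 and 1596 in sh-IRF1 (log2 fold change 0.74, limma adjusted p = 7.30e-14). AMPD3, which deaminates AMP, rose from 207 and 169 to 312 and 324 (log2 fold change 0.76, limma adjusted p = 1.30e-05). Of 13 nucleotide kinase and ribonucleotide reductase genes, 5 were lower (38.5%) and 2 higher (15.4%). RRM2, the regulated subunit of ribonucleotide reductase, was the larger rise, from 2891 and 2813 normalized counts in sh-NC to 4422 and 4571 in sh-IRF1 (log2 fold change 0.66, limma adjusted p = 2.91e-18). AK6 had 438 and 430.4 in sh-NC and 318 and 303 in sh-IRF1 (log2 fold change -0.48, limma adjusted p = 0.000389), and other genes overlap 23.7% of its exonic bases. AK4 had only 35 reads in the sh-NC libraries together and 6 in sh-IRF1, a ratio of 0.161 with an exact 95% interval for counting error from 0.0554 to 0.387, and the reads of its pseudogenes came to 82.9% of its own.

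Of 7 genes that make ribose 5-phosphate through the pentose phosphate pathway, 5 were higher (71.4%) and 2 lower (28.6%). The weakest of the raised genes passed at a limma adjusted p of 0.0495, and DESeq2 called 4 higher. PGD, an oxidative enzyme of this pathway, rose from 5386 and 5113 normalized counts in sh-NC to 7694 and 7597 in sh-IRF1 (log2 fold change 0.54, limma adjusted p = 6.49e-18). RPE, an epimerase of the same pathway, fell from 1058 and 1013 to 488 and 554 (log2 fold change -0.99, limma adjusted p = 3.60e-14), and KANSL1L on the other strand overlaps 23.8% of its exonic bases. Of 11 folate one-carbon genes, which feed the formyl transfers of GART and ATIC, 3 were lower and 3 higher (27.3% each), close to the shares of all genes. SHMT2, the mitochondrial serine hydroxymethyltransferase, had 7037 and 6888 normalized counts in sh-NC and 5392 and 5205 in sh-IRF1 (log2 fold change -0.39, limma adjusted p = 2.76e-13).

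For comparison, 4 of 10 pyrimidine synthesis genes were called lower, against 21.9% of all genes, with a list median of -0.10 beside -0.27 for the purine genes. CAD, the trifunctional enzyme of the first pyrimidine steps, fell from 5277 and 5228 normalized counts to 3552 and 3723 (log2 fold change -0.53, limma adjusted p = 6.05e-16), a change close in size to that of PPAT. The difference between the lists was not tested. Of the regulators listed, MYC fell to 51.2% of its control level (log2 fold change -0.97, limma adjusted p = 1.03e-29). ATF4, a factor of amino acid stress, had 9878 and 10049 normalized counts in sh-NC and 7135 and 6889 in sh-IRF1 (log2 fold change -0.51, limma adjusted p = 2.88e-18). MAX, the partner of MYC, had a log2 fold change of -0.25 (limma adjusted p = 0.00145), with 16.1% of its exonic bases shared, and without sh-NC replicate 2 it had -0.18 and an adjusted p of 0.0544. NRF1 stood at -0.14 (limma adjusted p = 0.206), which did not pass, and MTOR at 0.15 (limma adjusted p = 0.00808), a call lost without sh-NC replicate 2 (adjusted p = 0.0978), sh-IRF1 replicate 1 (0.0621) or sh-IRF1 replicate 2 (0.0582). Whether the purine genes moved because of any of these factors was not tested.

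**Figure D4:**
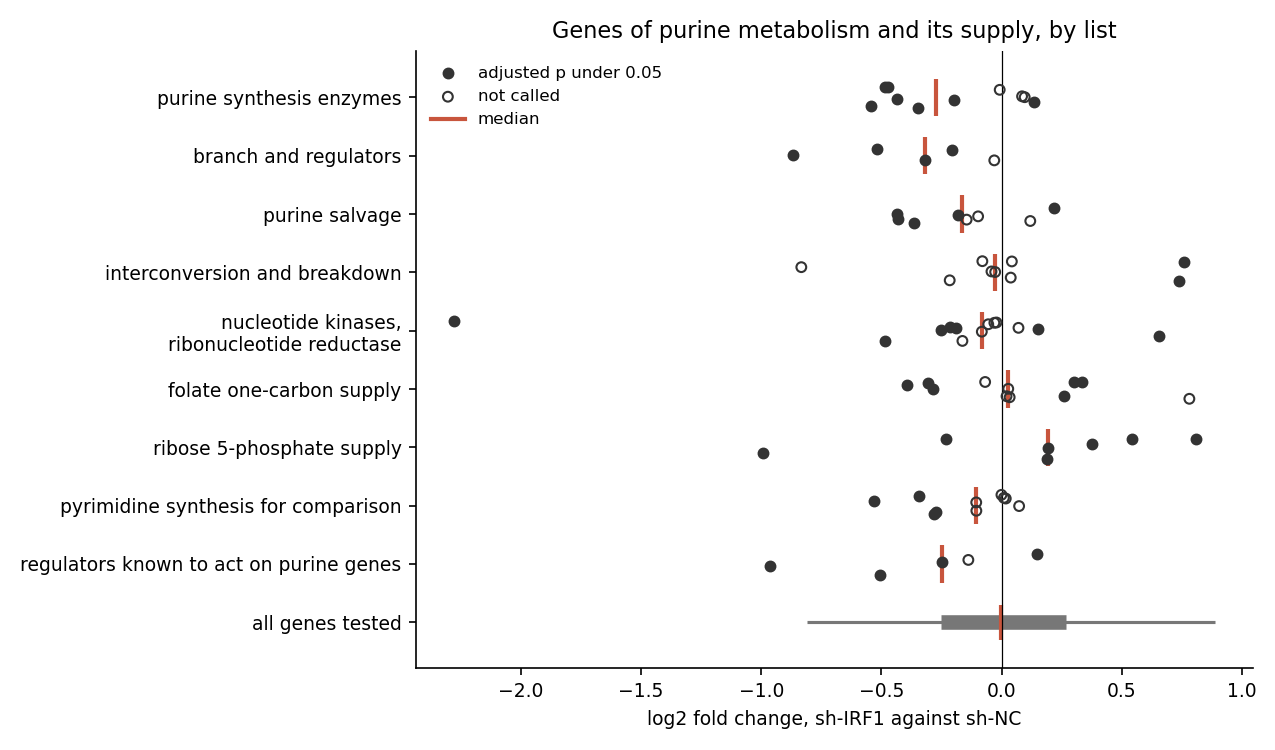
Fitted log2 fold change, sh-IRF1 minus sh-NC (x axis), of each tested gene by list, with filled points for an adjusted p under 0.05 in limma, open points for the others and red lines for list medians; the lowest row shows all 14120 genes by a thick bar for the middle 50 percent and a thin line for the middle 90 percent. The purine synthesis genes have a median of -0.27 and the ribose supply genes one of 0.20, and the outlying point among the kinases is AK4, whose fitted value rests on few reads.

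The lowered purine genes kept their direction under each of 14 other ways of processing, which changed the scaling, the filter, the pseudocount, the variance model, the test or the libraries used. The fitted log2 fold change of PPAT ranged from -0.58 to -0.50, that of GART from -0.48 to -0.43 and that of PAICS from -0.45 to -0.39. ATIC ranged from -0.21 to -0.15 and lost its call in limma without a variance trend and without robust shrinkage (adjusted p = 0.0859). IMPDH2 ranged from 0.043 to 0.13 and was called higher with scaling by total reads and without sh-NC replicate 1.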

How the data were processed

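RNA was sequenced from 4 MV4-11 libraries, 2 per group. The submitters' processing notes name HISAT2 2.0.5 and hg38, and the counting tool, annotation and use of strand are not given in the sources used here. The deposited signal values are reads per gene that the authors divided by 1 size factor per library. All values (100%) lay within 0.01 of a whole multiple of what 1 read is worth, so reads were recovered, and 0 other per-sample columns were present. Groups came from the labels. The main test was limma 3.58.1 (R 4.3.3, trend and robust) on log2(value + 1) over genes that reached a value of 10 in 2 or more libraries. edgeR 4.0.16 and DESeq2 1.42.0 on recovered reads, 3 scalings, other filters and pseudocounts, a replicate block and leaving out each library were alternatives. Symbols matched 23456 of 23622 identifiers. Coordinates and lengths came from GENCODE 44 on GRCh38, and promoter sequences from RefSeq on GRCh38.p14. Replicates differed by more than counting noise (chi-square per gene 2.37 and 2.52). On data simulated for this comparison, limma recovered 87 of 100 genes changed by 0.5 and 99 of 100 changed by 1 on the log2 scale, with 8 false calls among 14124 genes. Only these genes, all above a read floor, were changed, and the spread was set by hand rather than estimated from these libraries. Changes smaller than 0.5 were not simulated. In the data 5953 genes were called, so these rates do not carry over to it.

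The members, lists and tests were chosen with earlier results of these data known. All 10 members, IRF1 and the listed regulators were named, as were the isozymes IMPDH1, ADSS1 and ADSS2. From each list came the genes called beyond a log2 fold change of 0.5 and, per direction, the called gene of smallest p. PRPSAP2 and the 8 markers of the line were named after their values were seen. PRPS1L1, GDA and XDH were listed but not found by symbol in the table, and so were not analysed here. COL1A1, a fibroblast marker, had between 0 and 4.97 normalized counts in the 4 libraries. Some genes that this rule picks are not reported here.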

Additional observations from a re-analysis of the deposited data

How the results depend on the processing

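With 2 libraries per group, calls near the threshold depend on how the variance is modelled. Without trend and robust shrinkage, limma called 1282 genes lower and 1245 higher in place of 3092 and 2861, of the pathway lists 6 lower and 7 higher in place of 18 and 13, and 0 members higher in place of 1. With scaling by total reads, 2 members were called higher, 0 members lower beyond 0.5 in place of 1, and the median of the members was -0.2271 in place of -0.2716, while edgeR gave a median of -0.2658. Leaving out 1 library at a time gave 0 to 2 members higher (0 without sh-IRF1 replicate 2, 2 without sh-NC replicate 1) and 1 to 2 lower beyond 0.5 (2 without sh-IRF1 replicate 2). Of 140 recomputed values of single members, 135 stayed on the same side of the threshold, 3 lost the call (PFAS in limma without trend, with adjusted p = 0.27, and without sh-IRF1 replicate 2, and ATIC), and 2 of IMPDH2 gained it. ADSL, which was never called, changed sign in 4 of them. The count of members called lower was 5 without trend and 6 under every other alternative, and IRF1 stayed between -0.86 and -0.78. Same-numbered libraries did not deviate together (correlation of their deviations -0.0154 over 14120 genes) and the labels give the numbers no meaning, so a replicate block is only an alternative. With the replicate block 6 members were called lower and 1 higher. Of 950 values of the other listed genes, 890 stayed on the same side of the threshold, 55 lost the call and 5 gained it. The sign changed in 27 of the 950, over 16 genes, none of them called in either fit (0 values). For these moves the cause was not tested.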
